A study of Homo sapiens with 6 samples.

Results

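Thyroid hormone handling was followed through 7 genes in HepG2 cells, a human hepatocellular carcinoma line in long use that still makes many liver proteins. They are the deiodinase DIO1, the plasma carriers SERPINA7 and TTR, RBP4, which travels bound to TTR, the membrane transporter SLC16A10, the cytosolic binding protein CRYM and the hormone-responsive gene THRSP. They were picked by symbol, with this comparison already known, out of 23368 distinct genes, and all 7 were found and passed the expression filter. DIO1 lies on chromosome 1, SLC16A10 on 6, RBP4 on 10, THRSP on 11, CRYM on 16, TTR on 18 and SERPINA7 on X. The shCHROME cells (replicates a, b and c) stably carried a lentiviral short hairpin RNA against all variants of CHROME, a long noncoding RNA whose own level is not analysed here. The EV control cells (replicates a, b and c) carried a non-targeting hairpin in the same pLKO vector. Both hairpins were delivered by virus packaged in HEK293T, a human embryonic kidney line, and the 6 libraries come from a single line with a single targeting hairpin. The labels do not say whether the replicates were separate cultures, so the spread between them may be technical.

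The thyroid gland secretes mostly thyroxine, which circulates bound to thyroxine-binding globulin (the product of SERPINA7), transthyretin (TTR) and albumin. Liver is the main source of these carriers. Membrane transporters admit the hormone to cells, where deiodinases convert it to the more active triiodothyronine or inactivate it. Triiodothyronine acts through the nuclear receptors THRA and THRB, which bind DNA with an RXR partner.

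Recovered read totals ran from 29477352 to 33911426 in shCHROME libraries and from 29188213 to 35429420 in EV libraries. The hepatocyte identity of the line was checked with 11 markers, among them ALB, APOB and HNF4A, and all 11 passed the expression filter. Their summed normalized counts ran from 1277714 to 1482074 in shCHROME libraries and from 1578266 to 1695789 in EV libraries. At a limma adjusted p under 0.05, 6 of the 11 were called lower in shCHROME and 0 higher. Over all tested genes, 6.87% were called lower and 3.64% higher. Only 2 of the 11 had a log2 fold change above 0. Among 11 markers of thyroid follicular cells, TG had 7 reads over the 6 libraries and NKX2-1 had none. The list summed to between 448 and 610 in shCHROME libraries and to between 531 and 566 in EV libraries. Most of that sum was IYD, with means of 353 in shCHROME and 351 in EV. IYD, SLC5A5, PAX8, TSHR and SLC26A4 passed the expression filter, with 2096, 523, 254, 231 and 150 reads over the 6 libraries. None of these 5 was called. Choroid plexus, which also makes TTR, was read from 7 markers, which summed to between 957 and 1028 in shCHROME libraries and to between 978 and 1050 in EV libraries. Only 2 of them, SLC4A5 and KCNJ13, passed the expression filter, and neither was called. These 2 made up nearly all of the sum, and the other 5 had at most 7 reads each over the 6 libraries. Among 6 markers of bile duct cells, KRT19 and SPP1 were higher in shCHROME. SOX9 and EPCAM were not called (log2 fold changes 0.01 and 0.05). KRT7 (5 reads in shCHROME, 10 in EV) and CFTR (2 in each) had too few reads to test. The summed list ran from 18114 to 21697 in shCHROME libraries and from 14809 to 16880 in EV libraries. Most of that difference lay in SPP1, with means of 11683 in shCHROME and 8266 in EV. Markers of blood and endothelium summed to between 6512 and 7990 in shCHROME libraries and to between 6137 and 6230 in EV libraries, with LYZ, its most abundant gene, higher in shCHROME and CD3E and HBB at 0. Markers of embryonic kidney packaging cells ran from 2917 to 3051 in shCHROME libraries and from 3324 to 3544 in EV libraries, with CDH2 lower in shCHROME and NEFM and NEFL at 0. The part of these lists in the results below was not tested.

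Promoter sequences are shown for DIO1, which was lower in shCHROME, and for THRSP, which was not. Each line gives the 250 bases before the RefSeq start in build GRCh38.p14, read 5′ to 3′ on the gene's strand, and the values of the libraries themselves come from hg19. Capitals mark matches to the motifs searched. The motifs reported here, a part of those searched on both strands, are AGGTCA (a core nuclear receptor element), a pair of such elements as direct repeats 4 bases apart (the arrangement classically bound by thyroid hormone receptors) and TGTTTAC (forkhead factors such as FOXA2). The windows are chr1:53893937-53894186 on the plus strand for DIO1 and chr11:78063611-78063860 on the plus strand for THRSP.
DIO1: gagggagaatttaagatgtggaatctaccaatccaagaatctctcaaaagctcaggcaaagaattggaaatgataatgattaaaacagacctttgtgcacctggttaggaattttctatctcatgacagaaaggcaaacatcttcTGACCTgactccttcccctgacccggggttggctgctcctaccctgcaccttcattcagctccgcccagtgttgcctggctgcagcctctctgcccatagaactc
THRSP: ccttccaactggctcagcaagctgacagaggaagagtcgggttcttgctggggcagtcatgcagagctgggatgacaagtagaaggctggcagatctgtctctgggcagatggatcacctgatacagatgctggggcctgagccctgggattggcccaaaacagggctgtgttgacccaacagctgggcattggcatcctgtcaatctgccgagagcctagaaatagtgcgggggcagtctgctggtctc

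The DIO1 window held 1 nuclear receptor element, as its reverse complement, between 105 and 100 bases before the start. Of 35116 promoter windows of the same length, 12.1% held such an element. No match to any motif searched was found in the windows of THRSP, SLC16A10 or the 3 annotated starts of RBP4. The direct repeat was in 5 of the 35116 windows (0.0142%) and in none of those of the 5 genes with an entry, and the forkhead motif was in 2.98% of windows and likewise in none of theirs. A match is a sequence description and shows no binding. TTR and CRYM were not in the promoter table used here, which held 5 of the 7 genes.

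DIO1 is a selenoprotein of the liver and kidney that removes iodine from thyroxine. Its normalized counts (reads divided by the authors' library size factor) were 46.7, 83.7 and 62.7 in shCHROME replicates a, b and c, against 181, 160 and 189 in EV replicates a, b and c. Every shCHROME library lay below every EV library, and the lowest EV value was 1.91 times the highest shCHROME value. The means were 64.4 ± 18.6 in shCHROME and 177 ± 15.0 in EV (SD, n = 3 each), so shCHROME cells held 36.5% of the EV level. The log2 fold change on the log2(value + 1) scale was -1.48, the 27th lowest among the 14598 genes that passed the expression filter. Since DIO1 was chosen for this contrast, these values describe it and test nothing, and the same holds for the other 6 genes. In bulk RNA, fewer expressing cells and less RNA per cell cannot be told apart. The shCHROME libraries also scattered more than counting error: the coefficient of variation was 28.9% in shCHROME, where Poisson error at this depth gives 12.6%, and 8.51% in EV, where it gives 7.54%.

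SERPINA7, the carrier with the highest affinity for thyroxine, had 3230, 3027 and 3359 normalized counts in shCHROME replicates a, b and c, against 4692, 4621 and 4735 in the EV replicates. The groups were far apart relative to their spread, with 3205 ± 167 in shCHROME and 4682 ± 57.5 in EV (SD, n = 3 each), a log2 fold change of -0.55. TTR, which carries thyroxine and, through RBP4, retinol, had 365, 382 and 449 normalized counts in shCHROME libraries and 583, 676 and 710 in EV libraries. Here too the groups did not overlap, but each was wider, with 398 ± 44.2 in shCHROME and 656 ± 65.6 in EV (SD, n = 3 each). The log2 fold change of TTR was -0.72, which put shCHROME cells at 60.7% of the EV mean, against 68.5% for SERPINA7.

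RBP4, the plasma carrier of retinol, leaves the liver in a complex with TTR. It was the most abundant of the 7 transcripts and the only plasma carrier among them that was not lower in shCHROME. Its normalized counts were 19897, 19315 and 19415 in shCHROME libraries, against 17582, 17660 and 17618 in EV libraries. The groups did not overlap, although the difference was small, with 19542 ± 311 in shCHROME and 17620 ± 39.3 in EV (SD, n = 3 each) and a log2 fold change of 0.15. It was 0.20 when libraries were scaled to their read totals. RBP4 was called in the authors' deposited table but not in the limma fit used here.

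SLC16A10, a membrane carrier of aromatic amino acids and thyroid hormone, had 526, 593 and 546 normalized counts in shCHROME libraries and 591, 569 and 621 in EV libraries. These ranges overlapped (means 555 ± 34.7 in shCHROME and 594 ± 26.0 in EV, SD, n = 3 each; log2 fold change -0.10). CRYM, a ketimine reductase that also binds triiodothyronine in the cytosol, had 111, 118 and 105 normalized counts in shCHROME libraries and 106, 114 and 130 in EV libraries. The ranges overlapped again, and the log2 fold change of -0.06 turned to 0.02 without EV replicate c. CRYM-AS1 and ANKS4B overlap the CRYM locus on the other strand without sharing exon bases in GENCODE 29.

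THRSP, a lipogenic gene that thyroid hormone induces in rodent liver, was at the edge of detection. It had 10.3, 16.5 and 13.8 normalized counts in shCHROME libraries against 8.92, 10.1 and 5.97 in EV libraries. The lowest shCHROME value stood just above the highest EV value, and the means of 13.5 ± 3.14 in shCHROME and 8.32 ± 2.11 in EV (SD, n = 3 each) gave a log2 fold change of 0.65. Counting error alone gives a coefficient of variation of 27.4% in shCHROME and 34.6% in EV at these depths, as wide as the observed 23.2% and 25.3%. All 3 shCHROME libraries and no EV library reached the count level that the filter asks for, so THRSP passed it only through the group in which it was higher. NDUFC2, on the other strand, shares 48 of the 1174 exon bases of THRSP, and reads there cannot be assigned without strand.

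**Figure D1:**
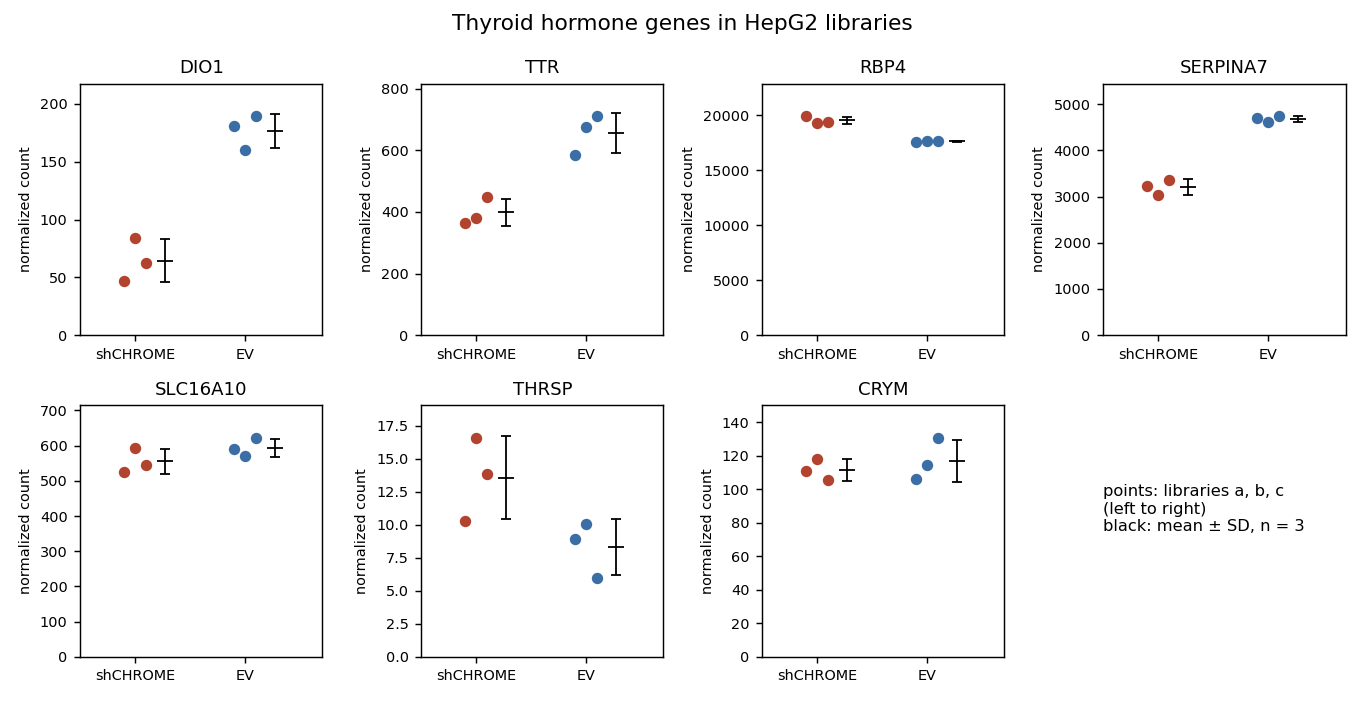
Normalized counts of the 7 genes in each library, shCHROME (red) left of EV (blue), with the mean ± SD of 3 libraries in black and each axis starting at 0. DIO1, TTR and SERPINA7 are lower in every shCHROME library, RBP4 and THRSP are higher, and SLC16A10 and CRYM overlap.

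In the limma fit over all tested genes, 3 of the 7 genes passed an adjusted p of 0.05 as lower (DIO1, TTR and SERPINA7) and none as higher, where 6.87% of tested genes were called lower and 3.64% higher (1003 and 532 genes, or 702 and 936 with libraries scaled to read totals). The normalized values of 3 genes lay wholly lower and of 2 wholly higher in shCHROME, where 15.0% and 13.0% of tested genes did so. These counts are printed beside their background only to describe the choice of genes, which used this contrast. The median log2 fold change of the 7 was -0.10, against 0.01 over all tested genes.

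Compared per kilobase of principal transcript, the genes covered a wide range of levels, and the order differed between the groups at 1 place. In shCHROME cells RBP4 stood first with 14872 ± 237 normalized counts per kilobase, followed by SERPINA7 with 1213 ± 63.3, TTR with 416 ± 46.2 and SLC16A10 with 221 ± 13.8. CRYM (75.7 ± 4.30), DIO1 (34.6 ± 9.98) and THRSP (11.5 ± 2.68) followed in shCHROME cells (SD, n = 3). In EV cells DIO1, at 94.9 ± 8.07 per kilobase, and CRYM, at 79.5 ± 8.47, had overlapping libraries, while in shCHROME cells every DIO1 value lay under every CRYM value. The other neighbours in the order did not overlap in either group. Lengths come from GENCODE 29 and which annotation lay behind the counts is unknown, so levels between genes are approximate.

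Ratios of reads within a library do not depend on how libraries are scaled. RBP4 had 54.5, 50.6 and 43.3 reads per TTR read in shCHROME libraries, against 30.2, 26.1 and 24.8 in EV libraries. The ratio of these transcripts, whose products form 1 complex, was thus 1.83 times as high in shCHROME. RBP4 was higher and TTR lower in every shCHROME library, so the lack of overlap follows from those values and is no separate result. SERPINA7 had 7.49 to 8.84 reads per TTR read in shCHROME libraries and 6.67 to 8.05 in EV libraries, so the ratio of these thyroxine carriers overlapped between the groups. DIO1 was lower relative to the carriers, with 36.1 to 69.2 SERPINA7 reads per DIO1 read in shCHROME libraries and 25.0 to 28.9 in EV libraries. ALB, the third thyroxine carrier, had 1424 to 1494 reads per TTR read in shCHROME libraries and 1036 to 1224 in EV libraries. These ranges did not overlap.

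**Figure D2:**
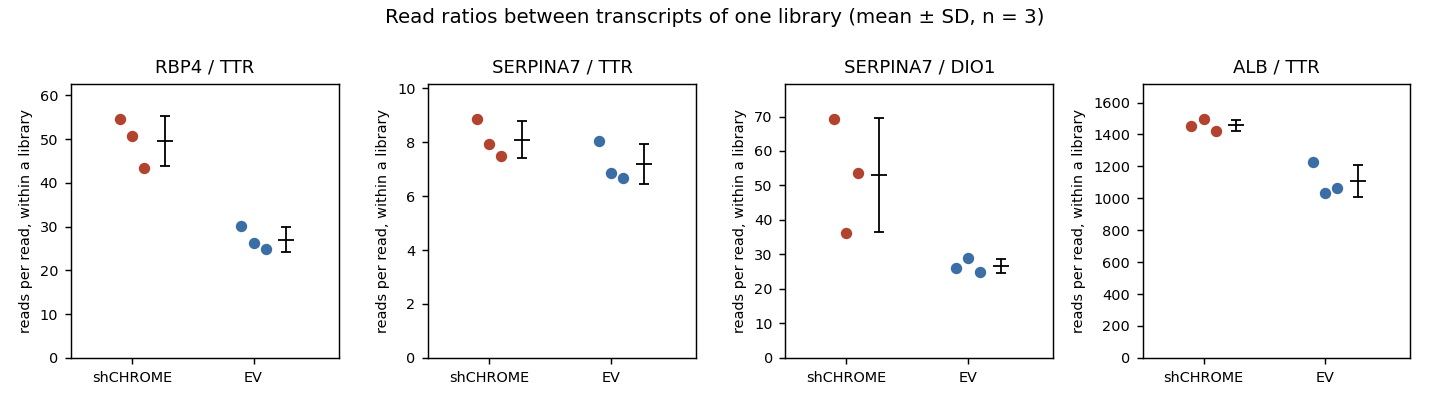
Reads of one transcript per read of another in the same library, shCHROME (red) left of EV (blue), with mean ± SD of 3 libraries in black. The RBP4 to TTR ratio does not overlap between the groups (43.3 to 54.5 in shCHROME, 24.8 to 30.2 in EV). This follows from the values of RBP4 and TTR, which differ in opposite directions. The SERPINA7 to TTR ratio overlaps.

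The rest of the thyroid hormone pathway was read from 4 lists with 56 tested genes. Of these, limma called 14 lower and 2 higher and left 40 uncalled. Over all tested genes, 6.87% were called lower and 3.64% higher, and these shares stand beside the counts of every list below. The lists were chosen with earlier results of these data known, so their counts are a description. Among 8 tested uptake transporters of 13 listed, 1 rose and 1 fell. SLCO1B3, a hepatic organic anion carrier, had 244 ± 3.83 normalized counts in shCHROME and 19.8 ± 2.16 in EV (limma adjusted p = 2.16e-09). SLCO2B1, of the same family, fell 1.49-fold, with 642 ± 125 in shCHROME and 943 ± 38.9 in EV (limma adjusted p = 0.00209). The amino acid exchanger subunits SLC7A5 and SLC3A2, which also move thyroid hormone, were the most abundant and were not called, with log2 fold changes of 0.01 (95% interval -0.10 to 0.13) and -0.10 (-0.23 to 0.03). The median log2 fold change of the list was -0.01.

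Among enzymes of deiodination and conjugation with albumin, 3 of 7 tested genes fell and none rose, and 7 more had too few reads. Without EV replicate c, 1 was called. SULT2A1, a hydroxysteroid sulfotransferase, fell 1.39-fold (2584 ± 232 in shCHROME, 3605 ± 417 in EV, SD, n = 3 each, limma adjusted p = 0.000893). ALB fell 1.25-fold (adjusted p = 0.0206), a call lost without EV replicate a (0.0676) or c (0.0731), with no filter (0.141) and with the replicate letter as a block (0.0572). SULT1A1, which sulfates thyroid hormone, fell 1.27-fold (adjusted p = 0.0418), and its call was lost in 7 of 15 alternatives (up to 0.156), those without EV replicate b or c or shCHROME replicate a or c among them. SULT1A1 and SULT1A2 are near-identical copies, so reads may be split between them. UGT2B7 had a log2 fold change of 0.13 (-0.07 to 0.33). Of the other deiodinases, DIO2 had 20 reads in shCHROME and 19 in EV, and DIO3 had none in any library. The list's median was -0.02.

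Receptors and coregulators were lower in 3 of 18 tested genes, with none higher and a list median of 0.02. RXRA, the partner of the thyroid hormone receptors, fell 1.34-fold, with 4243 ± 244 normalized counts in shCHROME and 5660 ± 179 in EV (SD, n = 3 each, limma adjusted p = 0.000158). ITGAV, an integrin subunit of the proposed cell surface receptor for thyroxine, fell 1.22-fold (adjusted p = 0.00653). The coactivator PPARGC1A fell 1.18-fold (0.0290). Scaling to library totals (0.0750), or leaving out EV replicate a (0.0769) or c (0.159) or shCHROME replicate b (0.0833), ended that call. The receptors themselves, named after their values were seen, were not called, with log2 fold changes of -0.16 for THRA (95% interval -0.35 to 0.02) and 0.01 for THRB (-0.13 to 0.15). NCOR1, a corepressor, stood at 0.08 (-0.04 to 0.21) and the coactivator CREBBP at 0.20 (-0.01 to 0.41).

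Among genes with a textbook response to thyroid hormone in liver, 7 of 23 tested fell and 1 rose, 15 were not called, and the list median was -0.05. Without EV replicate c or without shCHROME replicate c, 5 genes were called in all. PCK1, a gluconeogenic carboxykinase, fell 2.03-fold, with 1928 ± 152 normalized counts in shCHROME and 3926 ± 414 in EV (SD, n = 3 each, limma adjusted p = 1.95e-07). G6PC, the glucose-6-phosphatase of the same pathway, fell 1.55-fold (adjusted p = 5.75e-05), the lipase inhibitor ANGPTL4 1.43-fold (0.00540) and APOA1, the chief apolipoprotein of high-density lipoprotein, 1.29-fold (0.00105). These genes answer to many signals besides thyroid hormone, and APOA1 is also among the 6 hepatocyte markers called lower. KLF9, a direct receptor target, fell 1.22-fold (1103 ± 79.9 in shCHROME, 1341 ± 51.8 in EV, adjusted p = 0.0191), and HR, a corepressor gene that the hormone induces, 1.60-fold (87.0 ± 11.1 in shCHROME, 141 ± 28.3 in EV, adjusted p = 0.0193).

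Leaving out EV replicate a (limma adjusted p = 0.0709) or c (0.0878), or shCHROME replicate b (0.0615) or c (0.0824), ended the call of KLF9. Leaving out EV replicate a (0.0926) or c (0.0957), or shCHROME replicate c (0.0921), ended that of HR. CPT1A, the carnitine palmitoyltransferase of fatty acid oxidation, fell 1.18-fold (adjusted p = 0.0129), a call lost without the same 3 libraries (0.0735, 0.0794 and 0.0597). FURIN, a proprotein convertase, rose 1.48-fold, with 2953 ± 178 normalized counts in shCHROME and 2007 ± 366 in EV (SD, n = 3 each, adjusted p = 0.000599). FASN, the fatty acid synthase, stood at 0.15 (95% interval -0.04 to 0.34).

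**Figure D3:**
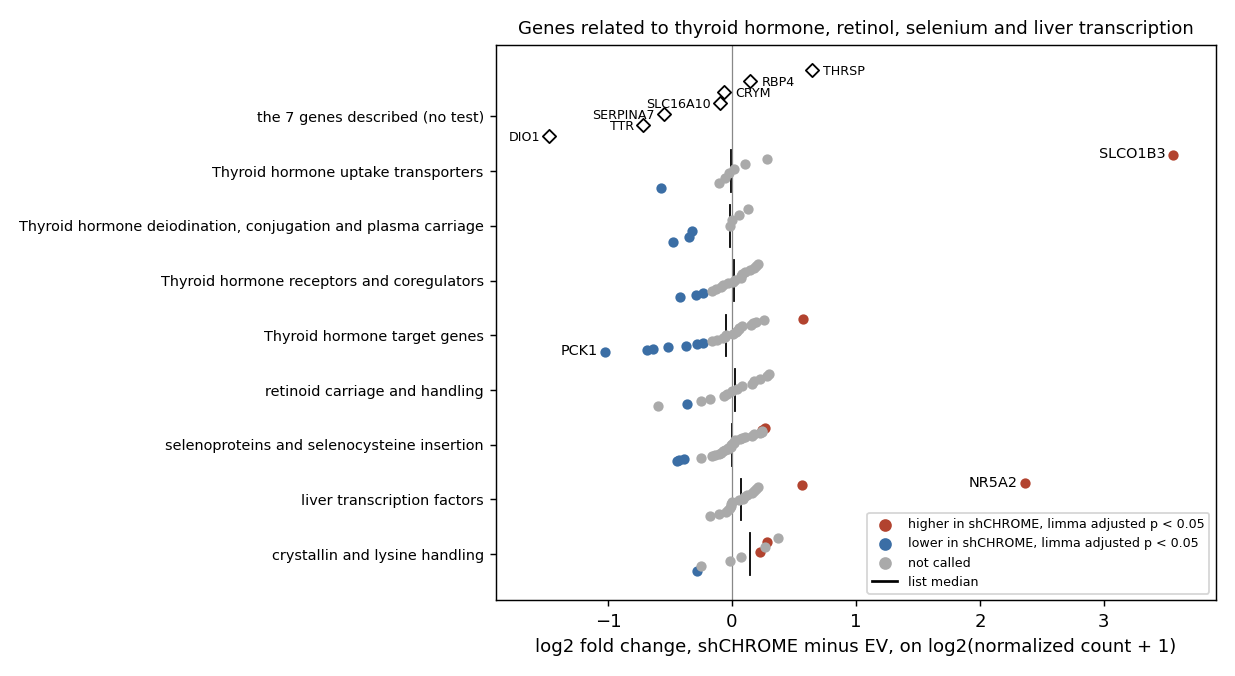
Log2 fold changes, shCHROME minus EV, of the 7 genes (white diamonds) and of the tested genes in 8 lists. List genes called higher are red, those called lower blue and those not called grey, with the list median as a black bar. The 7 genes were in the limma fit but are drawn without their calls, since they were chosen with this contrast known. In the list of thyroid hormone target genes 7 genes were called lower and 1 higher, and SLCO1B3 and NR5A2 lie far to the right.

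RBP4 belongs to retinol carriage, and of 14 tested genes of retinoid handling only RBP5 was called. RBP5, a cellular retinol-binding protein, fell 1.29-fold (360 ± 44.2 in shCHROME, 462 ± 36.9 in EV, SD, n = 3 each, limma adjusted p = 0.0376). The call was lost in 7 of 15 alternatives, with adjusted p of 0.0832 without EV replicate a, 0.167 without EV replicate c, 0.125 without shCHROME replicate a and 0.0595 without shCHROME replicate b. The abundant enzymes RDH11, DHRS3 and ALDH1A1 had log2 fold changes of -0.18 (95% interval -0.30 to -0.05), -0.06 (-0.18 to 0.06) and 0.04 (-0.14 to 0.22) and were not called, though DESeq2 called RDH11 (adjusted p = 0.0420). STRA6, the receptor for RBP4, had 2 reads in shCHROME and 5 in EV. The list's median was 0.02.

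DIO1 is a selenoprotein, and in a list of 28 selenoproteins and factors of selenocysteine insertion 3 fell and 2 rose, while 23 were not called (median log2 fold change 0.00). Calls numbered 2 without EV replicate c and 3 without shCHROME replicate c. The glutathione peroxidase GPX2 fell 1.34-fold (12320 ± 274 in shCHROME, 16592 ± 1409 in EV, SD, n = 3 each, limma adjusted p = 0.000184) and the thioredoxin reductase TXNRD1 1.31-fold (10630 ± 411 in shCHROME, 13898 ± 161 in EV, adjusted p = 0.000116). GPX3, a secreted peroxidase, fell 1.36-fold (adjusted p = 0.0164), which DESeq2 did not call (0.150), nor limma when EV replicate c (0.102) or shCHROME replicate c (0.0635) was left out. GPX1 rose 1.18-fold (0.0166), a call lost without EV replicate c (0.110). SEPHS1, a homologue of selenophosphate synthetase, rose by 0.26 on the log2 scale (0.0199) and was not called when EV replicate c (0.131) or shCHROME replicate c (0.0534) was left out. SECISBP2 and EEFSEC, which recode the selenocysteine codon and were named after their values were seen, stood at 0.00 (95% interval -0.12 to 0.12) and 0.10 (-0.10 to 0.30). SARS, the seryl-tRNA synthetase that starts selenocysteine synthesis, stood at 0.01 (-0.11 to 0.14).

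Liver-enriched transcription factors act on promoters such as that of TTR, and 2 of 18 rose and none fell, while 16 were not called, with a median of 0.07. ONECUT1 rose 1.48-fold (212 ± 33.2 in shCHROME, 143 ± 23.3 in EV, SD, n = 3 each, limma adjusted p = 0.0228). Leaving out EV replicate a (0.0926) or b (0.0732), or shCHROME replicate b (0.0725) or c (0.136), ended the call. NR5A2 was called from 43 reads in shCHROME and 9 in EV (adjusted p = 0.0269). It reached the filter's count level in no EV library, and its call was lost without EV replicate a (0.0530) or b (0.0941) or any 1 shCHROME library (0.0519, 0.0664 and 0.153 for a, b and c). HNF4A, CEBPA and CEBPB stood at -0.03 (95% interval -0.16 to 0.10), -0.18 (-0.30 to -0.05) and -0.01 (-0.13 to 0.11). None of the 3 was called, but CEBPA was called without shCHROME replicate b (adjusted p = 0.0108).

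CRYM also acts in lysine breakdown, and in a list of 8 such genes 2 rose and 1 fell (median 0.15). PIPOX, a peroxisomal oxidase, fell 1.22-fold (3419 ± 215 in shCHROME, 4156 ± 153 in EV, SD, n = 3 each, limma adjusted p = 0.00611). ALDH7A1 rose 1.22-fold (adjusted p = 0.0294) and AASS 1.17-fold (0.0324). Both calls were lost with the replicate block (0.0581 and 0.0758) and when EV replicate a (0.125 and 0.170) or c (0.111 and 0.0867) or shCHROME replicate c (0.105 and 0.0962) was left out. That of ALDH7A1 was also lost without shCHROME replicate b (0.0582) and that of AASS without shCHROME replicate a (0.0827). DHTKD1 stood at -0.01 (95% interval -0.17 to 0.14).

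The genes whose profiles over the 6 libraries were most like those of DIO1, TTR and RBP4 were found among 12319 tested genes with a mean of at least 50, by the root mean square difference of centred log2 values. For DIO1 the nearest was KNG1, which encodes kininogen, with a difference of 0.17 and means of 108 ± 16.3 in shCHROME and 346 ± 21.0 in EV, followed by PRICKLE2, RHBDL1, BIRC7 and ATOH8 (0.20 to 0.24). For TTR they were LEPR, the leptin receptor gene (0.0855), TTPA, which encodes a vitamin E transfer protein (0.0875), KIAA1024, LY6D and BTN3A2 (up to 0.0957). For RBP4 they were SSRP1, TAF11, NOP56, NCAPD3 and TBC1D5 (0.0167 to 0.0199). Likeness over 6 libraries is a description of these profiles.

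**Figure D4:**
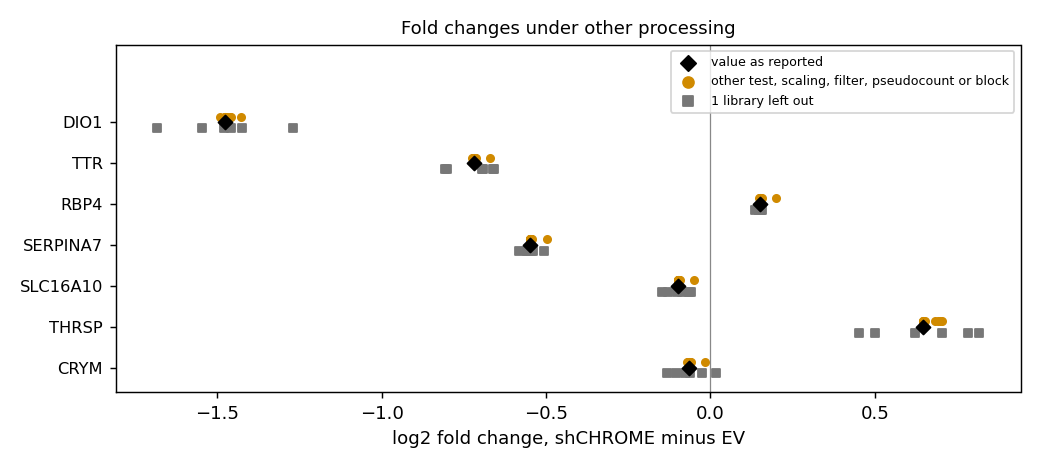
Log2 fold changes of the 7 genes, shCHROME minus EV, as reported (black diamonds), under other tests, scalings, filters, a pseudocount or a replicate block (orange circles) and with 1 library left out (grey squares). DIO1 stays between -1.68 and -1.27, and CRYM crosses 0.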

How the data were processed

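RNA from 3 shCHROME and 3 EV libraries was sequenced in pairs. Per the submitters' processing notes, the authors used STAR 2.5, featureCounts 1.5.2, DESeq2 3.4 and hg19; the annotation and strand setting are not given in the sources used here. The authors deposited 1 signal per gene and library (counts divided by a size factor), their own mean signal, a log2 fold change, and p-values with adjusted p-values. Of 24656 rows, 1288 repeats were removed. Dividing by the value of 1 read gave whole reads within 0.01 reads for 100% of genes.

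The test was limma 3.58.1 (trend) in R 4.3.3 on log2(value + 1), after edgeR 4.0.16's filter (filterByExpr, minimum count 10), with Benjamini-Hochberg adjustment over 14598 genes and a threshold of 0.05. The same limma step was also run on simulated counts scaled to library totals, and the outcome is not reported here. Alternatives were edgeR, DESeq2 1.42.0, other scalings, filters and pseudocount, a block for the replicate letter and each library left out in turn. No columns of samples were left unmapped (0). The members and lists were chosen with earlier results of these data known. In each pathway list the called genes and the 3 most abundant tested genes are named. Exceptions are the genes marked as named after their values were seen, and DIO2, DIO3, SULT1A2 and STRA6. Some items of these lists and of the motif search are not reported here. With no separate cultures stated, the p-values reflect only how these libraries vary, which may be technical. Read totals of about this size leave genes with few reads, such as THRSP, limited by counting error.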

Additional observations from a re-analysis of the deposited data

How the results depend on the processing

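Over 15 alternatives, 6 of the 7 genes kept the sign of their log2 fold change wherever they could be fitted, and CRYM did in 14. Another filter on all 6 libraries, or the replicate block, leaves the log2 fold change of a gene as it was. Those alternatives therefore say nothing about its sign. RBP4 moved to 0.20 with library totals. Over all genes, 532 were called higher and 1003 lower; library totals gave 936 higher and 702 lower, and the replicate block 349 higher and 764 lower. Deviations from the group mean had same-letter correlations of -0.047, -0.0915 and 0.0444 for a, b and c. Between different letters the correlations ran from -0.0830 to 0.129. This check showed no pairing by letter, but with 3 libraries per group it cannot exclude it. The deiodination, conjugation and carriage list had 1 call with no filter. The retinoid list had 2 with DESeq2 and 0 with library totals, with no filter and with the block. The liver factor list had 1 with DESeq2 and with at least 1 CPM in 3 libraries, and the lysine list 1 with the block. The causes were not tested. Without 1 library at a time, calls ran from 844 to 1579 in all, 245 to 528 higher and 599 to 1051 lower. They were 932 without EV replicate a, 972 without EV replicate c and 844 without shCHROME replicate c. Log2 fold changes then ran from -1.68 to -1.27 for DIO1, -0.81 to -0.66 for TTR, 0.14 to 0.16 for RBP4, -0.58 to -0.51 for SERPINA7, -0.15 to -0.06 for SLC16A10, 0.45 to 0.82 for THRSP and -0.13 to 0.02 for CRYM. Calls per list ran from 2 to 2 (uptake), 1 to 3 (conjugation), 2 to 3 (receptors), 5 to 9 (targets), 0 to 1 (retinoid), 2 to 6 (selenoproteins), 0 to 2 (liver factors) and 1 to 3 (lysine). THRSP was not tested with the 1 CPM filter. With 1 hairpin and 1 line, effects of the hairpin sequence and of the target cannot be told apart.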

Other observations

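The authors' deposited mean for CRYM, 104.8 normalized counts, lies below its lowest library, which is 105.2 (shCHROME replicate c). Among 11274 genes whose 6 libraries averaged at least 100 normalized counts, the deposited mean lay below the lowest library in 76. It lay above the highest library in 159. In the authors' deposited table the log2 fold changes are -0.83 for DIO1, -0.55 for TTR, -0.50 for SERPINA7, 0.14 for RBP4, -0.09 for SLC16A10, -0.05 for CRYM and 0.13 for THRSP, where the limma fit gave 0.65 for THRSP and -1.48 for DIO1.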
